A study of Mus musculus with 16 samples.

Results

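The genes described here encode the nuclear-encoded subunits of the mitochondrial respiratory chain and of ATP synthase. They were chosen by name, as probes whose RefSeq accession mapped to a symbol starting with Nduf, Uqcr or Atp5, to Cox followed by a digit from 4 to 8, or to Sdha, Sdhb, Sdhc or Sdhd, without the Ndufaf assembly factors. The rule used no measured value and found 85 of the 20656 genes named on the array, measured by 114 probes. Complex I had 38 genes, complex II had 4, complex III had 8, complex IV had 18 and ATP synthase had 17.

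Expression had been measured on 16 one-colour Agilent arrays, each holding RNA of retina and retinal pigment epithelium (RPE) together. The 4 groups of 4 arrays were nm3342 mutant mice at 1 month, wild-type mice at 1 month, nm3342 mutants at 1 year and wild types at 1 year. All mice were on the C57Bl/6J background and labelled male, and the series' title puts the mutant forward as a possible model of serous detachment of the retina. The mutated gene is not named in the labels, so no targeted gene could check the genotypes, and the labels do not say whether an array held 1 animal.

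The respiratory chain passes electrons from NADH and succinate to oxygen through complexes I to IV and pumps protons across the inner mitochondrial membrane, and ATP synthase uses the returning protons to make ATP. Photoreceptors are among the cells with the highest oxygen use in the body, and their inner segments are packed with mitochondria, while the RPE also relies on oxidative metabolism. Several complex IV subunits exist as isoforms from separate genes, some used in most tissues and others mainly in heart and skeletal muscle, testis or lung.

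Levels are log2 processed signals with each array's 75th percentile subtracted, so that 0 is the 75th percentile of an array. Between 82.1% and 89.6% of an array's spots gave signal well above background, that percentile ran from 603 to 994 units of processed signal, and no member value was saturated. On 3 arrays, labelled 1-month mutant replicates 2 and 3 and 1-year mutant replicate 1, the sex-linked genes went against the male label. On those 3 arrays Xist lay between 0.22 and 0.48 and the Y-linked Ddx3y between -8.47 and -8.13, whereas on the other 13 Xist lay between -8.71 and -6.35 and Ddx3y between 0.69 and 1.19. Values or calls without these 3 arrays are given for the results that were called between genotypes or with age in the mutants. Medians of the complexes are given without them too.

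Of the 85 genes, 84 entered the test, which took probes with signal well above background on 4 arrays or more. Only Cox8c, encoding a testis isoform of a complex IV subunit, did not, with no array well above background and a level between -8.73 and -7.25. On average over the arrays, 80 of the 84 lay above the 75th percentile of the array (95.2%, against 43.7% of all genes tested). The median level of the 84 was 4.69, against -0.54 for all genes. The exceptions were Cox7b2, Ndufab1, Ndufa4l2 and Cox6b2, with mean levels of -5.52, -2.33, -0.52 and -0.05.

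In the mutants, Cox8b alone among the 84 passed the test against age-matched wild types, and it did so at both ages. It was higher by 1.51 ± 0.23 on the log2 scale at 1 month and by 1.40 ± 0.23 at 1 year (limma, model SE, 4 arrays per group), which are folds of 2.84 and 2.65. Cox8b encodes the heart and skeletal muscle isoform of subunit 8 of complex IV (cytochrome c oxidase), the complex that hands electrons to oxygen. It lies on chromosome 7, and its RefSeq promoter window is shown because it is the gene that carries the genotype difference. Beside it stand the windows of Cox6b2, the gene that passed the test with age, and of Cox6a1, the widely expressed isoform of another subunit. Each is the 250 bases before the start of the gene in RefSeq, build GRCm38.p6, minus strand, 5′ to 3′, at chr7:140900447-140900696, chr7:4753095-4753344 and chr5:115348959-115349208.
Cox8b: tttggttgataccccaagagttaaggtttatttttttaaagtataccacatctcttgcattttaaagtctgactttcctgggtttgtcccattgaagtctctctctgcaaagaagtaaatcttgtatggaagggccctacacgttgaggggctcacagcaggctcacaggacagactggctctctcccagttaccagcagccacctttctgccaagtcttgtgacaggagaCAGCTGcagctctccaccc
Cox6b2: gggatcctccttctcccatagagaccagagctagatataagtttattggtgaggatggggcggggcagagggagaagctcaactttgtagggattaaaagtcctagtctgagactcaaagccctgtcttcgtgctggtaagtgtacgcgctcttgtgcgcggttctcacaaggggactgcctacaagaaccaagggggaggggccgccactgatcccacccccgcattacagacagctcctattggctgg
Cox6a1: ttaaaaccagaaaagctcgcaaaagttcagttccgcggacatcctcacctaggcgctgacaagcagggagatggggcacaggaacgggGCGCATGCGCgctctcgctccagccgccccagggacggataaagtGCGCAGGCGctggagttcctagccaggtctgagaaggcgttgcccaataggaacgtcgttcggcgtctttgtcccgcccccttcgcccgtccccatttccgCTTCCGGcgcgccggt
Capitals mark matches to motifs searched on both strands, overlaps included: GCGCANGCG for the factor NRF1, CCGGAAG for the ETS family, AAGATGGCG for YY1 and the E-box CANNTG. The Cox6a1 window held 3 NRF1 matches, counting both strands of a palindrome, and 1 ETS match, the Cox8b window held 1 E-box, and the Cox6b2 window held none of them.

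A promoter window was found for 69 of the 85 genes. NRF1, a factor known for driving nuclear genes of the respiratory chain, had a match in 20.3% of the 69 genes and in 9.15% of the 15052 tested genes with a window. For ETS, the family of the nuclear respiratory factor GABP, the shares were 17.4% and 11.3%. The E-box, the site of muscle and other basic helix-loop-helix factors, was at 62.3% and 65.4%, and YY1 at 1.45% and 0.997%. These are matches of letters only, with no test.

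Cox8b levels at 1 month were 4.10, 3.52, 3.37 and 3.60 in mutant replicates 1 to 4 and 1.44, 2.48, 2.19 and 2.45 in the wild types. At 1 year they were 3.90, 3.87, 3.81 and 4.10 in the mutants and 2.89, 2.04, 2.55 and 2.59 in the wild types. Every mutant array lay above every wild-type array of either age, and the ranges did not overlap. The adjusted p was 0.00307 at 1 month and 0.00773 at 1 year (limma, Benjamini-Hochberg over all 19018 genes). The genotype difference did not differ detectably between the ages, at -0.10 ± 0.32 (limma adjusted p = 0.965, 95% interval -0.80 to 0.59). In bulk RNA, a change in the number of cells of a type and in the RNA per cell cannot be told apart.

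**Figure D1:**
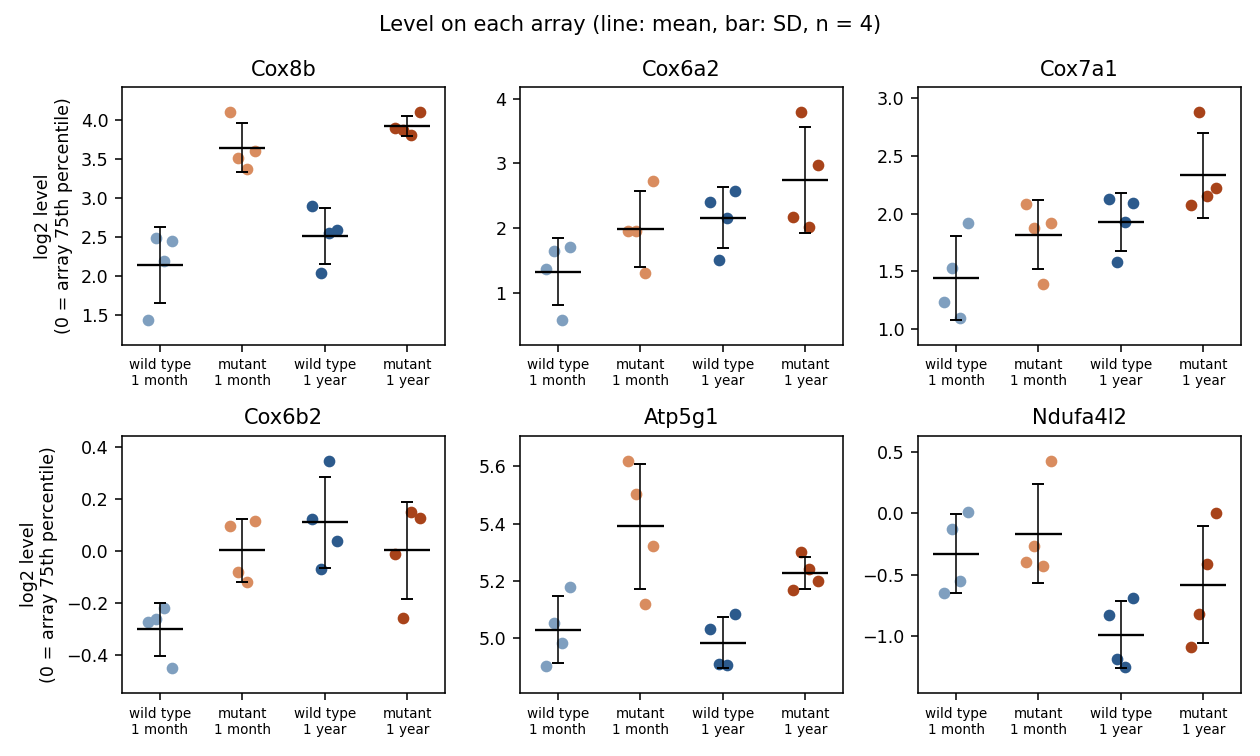
Log2 level (0 is the array's 75th percentile) on each of the 4 arrays of each group for 6 genes, with the mean (line) and SD (bar). For Cox8b all mutant arrays, from 3.37 to 4.10, lie above all wild-type arrays, from 1.44 to 2.89, while for Cox6a2 and Cox7a1 the groups overlap at both ages.

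Without the 3 arrays whose sex-linked genes went against the label, the Cox8b difference was 1.71 at 1 month and 1.41 at 1 year (limma adjusted p = 0.0269 and 0.0491). Within slide 1 it was 1.60 and 1.55, and within slide 2 it was 1.42 and 1.26, with 2 arrays per group on a slide, where it was not called (adjusted p from 0.174 to 0.564). On slide 2 the mutant arrays all lay in row 2 and the wild types in row 1. With the array row as a term the differences were 1.66 and 1.56, and both were called.

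Most markers of skeletal muscle, which lies next to the eye, had positive differences as well. At 1 month 14 of the 15 muscle markers tested were higher in the mutants, with a median of 0.64. Of the 15, 1 passed the test, against 2.03% of all genes called higher. It was Acta1, the skeletal muscle actin, at 1.81 ± 0.39 (limma adjusted p = 0.0256). At 1 year 13 of 15 were higher, with a median of 0.39, and none passed. Summed over the 15 markers, the linear level relative to the 75th percentile ran from 88.6 to 201 in 1-month mutants and from 45.7 to 122 in 1-month wild types. At 1 year it ran from 124 to 410 in mutants and from 118 to 207 in wild types. Of the 15 markers, 14 were well above background on all 16 arrays, and Myh13, the extraocular myosin, on 2 or 3 of the 4 arrays of each group.

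With the mean of the muscle markers on each array as a covariate, a fit added after the data were seen, Cox8b stayed called, at 1.37 at 1 month and 1.32 at 1 year (limma adjusted p = 0.0212 and 0.0191). The marker mean averaged 1.55 in 1-month mutants and 0.85 in 1-month wild types, and 2.09 and 1.65 at 1 year. Since it differed with genotype, this fit cannot tell muscle tissue and genotype apart. The part of muscle tissue in the Cox8b difference was not tested.

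**Figure D2:**
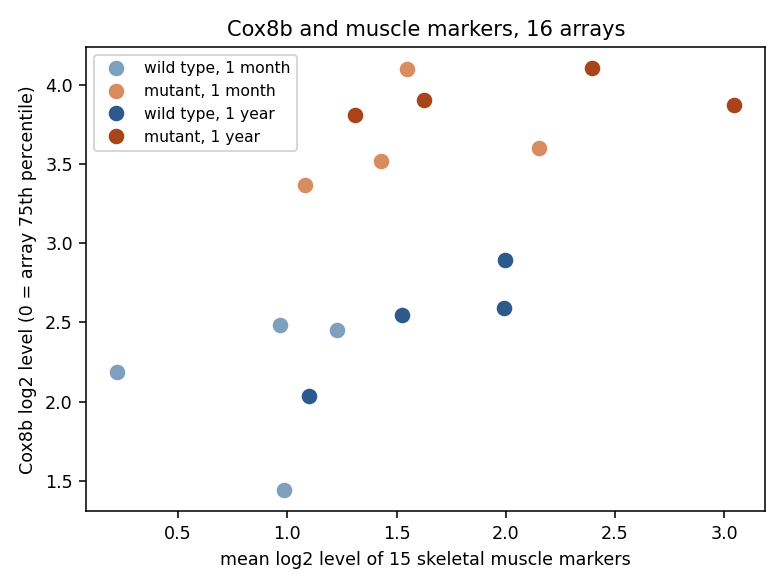
Cox8b log2 level against the mean log2 level of 15 skeletal muscle markers on the 16 arrays, coloured by group. The 8 mutant arrays lie at 3.37 or above and the 8 wild-type arrays at 2.89 or below, while the marker means overlap, from 1.08 to 3.05 in the mutants and from 0.22 to 1.995 in the wild types.

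Cox8b is also known from brown and beige fat. Of the 5 adipocyte markers, 3 were higher and 2 lower in the mutants at 1 month, and 4 were higher and 1 lower at 1 year. Of the 5, 1 passed the test at 1 year, against 0.61% of all genes called higher. It was Cidea, a lipid droplet protein of brown fat, at 0.40 ± 0.08 (limma adjusted p = 0.0271), and it was at 0.00 ± 0.08 at 1 month. Ucp1, which defines brown fat, was well above background on 3 of 4 arrays in each 1-month group and on 1 of 4 in each 1-year group. The summed adipocyte level was 1.48 to 1.77 in 1-month mutants, 1.62 to 2.18 in 1-month wild types, 2.19 to 2.80 in 1-year mutants and 1.77 to 2.48 in 1-year wild types. The part of fat in the Cox8b difference was not tested.

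Of the 10 tested genes nearest to Cox8b in gene order, 5 on either side, 9 did not pass the test at either age. The exception was Ifitm3, an interferon-induced membrane protein gene, 5 places away, which was higher at 1 month by 1.09 ± 0.20 (limma adjusted p = 0.0116) and at -0.15 ± 0.20 at 1 year. Psmd13 and Pgghg, the nearest on either side, were at 0.05 and 0.12 at 1 month and at 0.12 and 0.15 at 1 year.

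The other muscle isoforms of complex IV, Cox6a2 and Cox7a1, lie on chromosome 7 too. Cox6a2 was at 1.96, 1.96, 1.31 and 2.74 in 1-month mutants and at 1.37, 1.66, 0.59 and 1.71 in 1-month wild types. At 1 year it was at 2.18, 3.79, 2.02 and 2.98 in mutants and at 2.40, 1.50, 2.16 and 2.58 in wild types. The groups overlapped at both ages, and Cox6a2 had the widest spread within groups of all 84 genes, with an SD of 0.61. Its differences of 0.66 ± 0.40 and 0.58 ± 0.40 did not pass the test (limma adjusted p = 0.467 and 0.652), and with the muscle covariate they were -0.11 and 0.10.

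Cox7a1 was at 2.08, 1.88, 1.39 and 1.92 in 1-month mutants and at 1.23, 1.53, 1.1 and 1.92 in 1-month wild types. At 1 year it was at 2.07, 2.88, 2.15 and 2.22 against 2.12, 1.58, 1.93 and 2.09. The groups overlapped, and the differences of 0.37 ± 0.22 and 0.40 ± 0.22 did not pass (limma adjusted p = 0.447 and 0.529). With the muscle covariate they were 0.04 and 0.19. Of the 3 muscle isoforms, Cox8b alone was called in that fit, as in the main fit.

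The widely expressed isoforms of the same subunits showed small differences. Cox8a, the counterpart of Cox8b, was at 7.16, 6.98, 6.76 and 6.74 in 1-month mutants and at 6.72, 6.81, 6.85 and 6.77 in wild types, and at 1 year at 6.87, 6.78, 6.92 and 6.88 against 6.87, 6.78, 6.90 and 6.79. Its mutant minus wild-type differences were 0.12 ± 0.09 and 0.03 ± 0.09, with a 95% interval from -0.16 to 0.21 at 1 year. Those of Cox6a1 were 0.00 ± 0.10 and 0.03 ± 0.10, and those of Cox7a2 0.20 ± 0.13 and 0.00 ± 0.13. None passed the test, and the groups overlapped for each of these 3 genes at both ages.

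Cox6b2, the testis isoform of subunit 6b, was the only gene of the 84 to pass the test with age, in the wild types. Its levels were -0.27, -0.26, -0.22 and -0.45 in 1-month wild types and 0.12, -0.07, 0.35 and 0.04 in 1-year wild types. Every older wild-type array lay above every younger one. The rise was 0.41 ± 0.11 (limma adjusted p = 0.0232, 95% interval 0.18 to 0.64), a fold of 1.33. The call was lost without 1-month wild-type replicate 4 (0.36, adjusted p = 0.0604), 1-year wild-type replicate 1 (0.41, 0.0603) or 1-year wild-type replicate 3 (0.33, 0.0648), all by limma. On either slide alone it was not called, at 0.41 on slide 1 and 0.42 on slide 2 (limma adjusted p = 0.381 and 0.157).

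In the mutants Cox6b2 was at 0.10, -0.08, -0.12 and 0.12 at 1 month and at -0.01, -0.25, 0.15 and 0.13 at 1 year. The younger mutants lay above all younger wild types, at 0.30 ± 0.11, which did not pass (limma adjusted p = 0.186), and the age difference in mutants was 0.00 ± 0.11. The difference between the age effects, at -0.41 ± 0.15, did not pass (limma adjusted p = 0.311). Its partner Cox6b1 had differences with age of 0.06 ± 0.11 in wild types and -0.07 ± 0.11 in mutants.

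The remaining isoforms of complex IV gave no call. Cox4i2, the lung isoform of subunit 4, had group means of 0.57 in all 4 groups (SDs from 0.09 to 0.14), and its 95% interval at 1 year ran from -0.20 to 0.20. Cox4i1, the common isoform, was at 0.04 ± 0.10 and 0.07 ± 0.10 in the mutants against wild types and at -0.19 ± 0.10 with age in wild types. Cox7b2, a testis isoform near background, was at 0.48 ± 0.21 at 1 month and -0.25 ± 0.21 at 1 year, with overlapping groups. On slide 1 alone its 1-month difference was -0.08 and on slide 2 alone 1.03.

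Complex IV as a whole had 1 of 17 tested genes higher in the mutants at each age, namely Cox8b, and none lower. At 1 month, 14 of 17 differences were positive with a median of 0.13, and at 1 year 13 of 17 with a median of 0.03. Cox5a and Cox5b, core nuclear subunits, were at 0.07 and 0.13 at 1 month and 0.01 and 0.10 at 1 year. Cox7a2l, a factor that joins complexes III and IV in supercomplexes, was at -0.10 ± 0.09 and -0.04 ± 0.09.

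Complex I, which takes electrons from NADH, had no gene of 38 past the test in either direction at either age. At 1 month 34 of 38 differences were positive, from -0.03 to 0.31, with a median of 0.12. At 1 year 33 of 38 were positive, from -0.07 to 0.41, with a median of 0.07. The largest at 1 month was Ndufab1, the mitochondrial acyl carrier protein, at 0.31 ± 0.16 (limma adjusted p = 0.385), and at 1 year it was Ndufa4l2 at 0.41 ± 0.25 (0.597). The lowest were Ndufv1 and Ndufs3 at 1 month, both at -0.03 ± 0.09, and Ndufa10 at 1 year, at -0.07 ± 0.13.

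The NADH-binding subunit gene Ndufv1 had levels of 5.16, 5.01, 4.99 and 4.88 in 1-month mutants against 4.91, 4.98, 4.93 and 5.32 in wild types. Those of Ndufs1, the largest iron-sulphur subunit, were 3.97, 3.71, 3.92 and 3.65 against 3.65, 3.82, 3.76 and 4.08. For both, the 1-month groups overlapped, with differences of -0.03 ± 0.09 and -0.02 ± 0.09. At 1 year Ndufs1 was at 3.87, 3.83, 3.84 and 3.89 in mutants and 3.69, 3.79, 3.69 and 3.76 in wild types. Those ranges did not overlap, and the difference of 0.13 ± 0.09 did not pass (limma adjusted p = 0.688). Ndufb8, a membrane-arm subunit often used to gauge assembled complex I, was at 0.06 ± 0.11 and -0.02 ± 0.11.

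Ndufa4 and Ndufa4l2 carry complex I names, although the Ndufa4 protein is now placed with complex IV. Ndufa4l2, a gene known to respond to hypoxia, was at -0.65, -0.13, -0.55 and 0.01 in 1-month wild types and at -0.83, -1.19, -1.25 and -0.69 in 1-year wild types. Every older array lay below every younger one, and the difference of -0.66 ± 0.25 did not pass (limma adjusted p = 0.105). In the mutants the ages overlapped, with a difference of -0.42 ± 0.25. Ndufa4 was between -0.02 and 0.00 in all 4 comparisons of genotype or age.

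Complex II, which feeds electrons from succinate and is also an enzyme of the tricarboxylic acid cycle, had no call among its 4 genes. All 4 differences were positive at both ages, with medians of 0.10 and 0.05. Sdha, the flavoprotein subunit, was at 0.05 ± 0.09 and 0.06 ± 0.09. Sdhb, the iron-sulphur subunit, was at 4.62, 4.70, 4.55 and 4.53 in 1-year mutants and 4.38, 4.31, 4.35 and 4.47 in wild types. The ranges did not overlap, and the difference of 0.22 ± 0.10 did not pass (limma adjusted p = 0.448).

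Complex III, which passes electrons from ubiquinol to cytochrome c, had no call among 8 genes, with 8 positive differences at 1 month (median 0.14) and 7 at 1 year (median 0.09). Uqcr11, a small subunit, had the largest value, at 5.02, 4.95, 4.79 and 4.66 in 1-month mutants and 4.37, 4.56, 4.63 and 4.71 in wild types. Only mutant replicate 4 lay below the highest wild-type array. The difference of 0.28 ± 0.09 did not pass (limma adjusted p = 0.151). Uqcrc1, a core subunit, was at 0.14 ± 0.09 and 0.04 ± 0.09, and Uqcrfs1, the Rieske iron-sulphur protein, at 0.05 ± 0.14 and 0.13 ± 0.14.

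ATP synthase had no call among 17 genes, with 17 positive differences at 1 month (median 0.14) and 16 at 1 year (median 0.07). Atp5g1, which encodes the proton-carrying c subunit of the rotor ring, was at 5.62, 5.50, 5.12 and 5.32 in 1-month mutants and at 4.90, 5.05, 4.98 and 5.18 in wild types. Mutant replicate 3 lay below the highest wild-type array, and the difference was 0.36 ± 0.10 (limma adjusted p = 0.0744). It passed the test under quantile scaling (0.32, limma adjusted p = 0.0409) and in the authors' deposited matrix (0.31, 0.0414). At 1 year it was at 5.17, 5.30, 5.24 and 5.20 against 5.03, 4.91, 4.91 and 5.08, without overlap, and the difference of 0.24 ± 0.10 did not pass (limma adjusted p = 0.345).

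Atp5g2 and Atp5g3 encode the same mature c subunit. Their differences were 0.08 ± 0.11 and 0.06 ± 0.09 at 1 month and 0.17 ± 0.11 and 0.13 ± 0.09 at 1 year. The alpha (Atp5a1) and beta (Atp5b) subunits of the F1 head were at 0.17 ± 0.08 and 0.07 ± 0.09 at 1 month and at 0.01 ± 0.08 and -0.05 ± 0.09 at 1 year. None of these 4 genes passed the test.

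**Figure D3:**
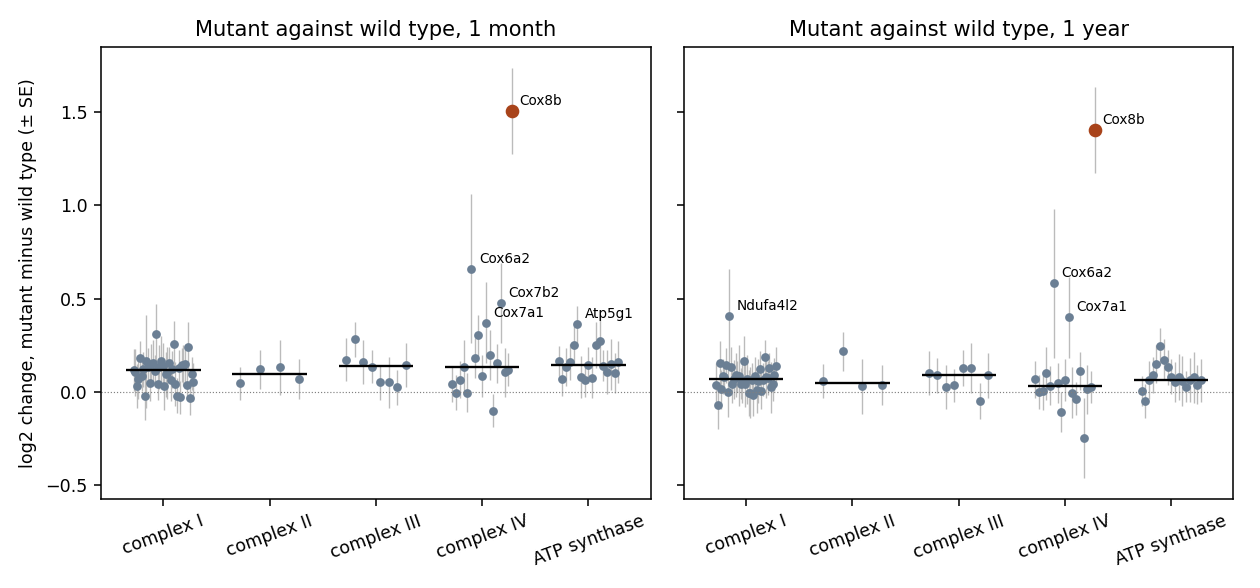
Log2 difference, mutant minus wild type, with the model's SE, for each of the 84 tested genes by complex at 1 month (left) and 1 year (right). Black lines are medians of the complexes, large red points passed the test, and genes beyond 0.35 are named. Cox8b stands apart at 1.51 and 1.40, and the complex medians lie between 0.10 and 0.14 at 1 month and between 0.03 and 0.09 at 1 year.

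The calls among the 84 stand here beside those over all genes. At 1 month 1 of 84 was called (1.19%), against a background of 2.72% of the 19018 genes (2.03% higher, 0.694% lower). At 1 year 1 of 84 was called, against 0.857% (0.61% higher, 0.247% lower). No gene was called for the difference between the ages in the genotype effect, against 0.421%. At an unadjusted limma p under 0.05 for this difference the number was 2 (2.38%), against 10.8% of all genes. The widest values of that difference were -0.72 ± 0.30 for Cox7b2 and 0.24 ± 0.35 for Ndufa4l2. With age, 1 of 84 was called in wild types, against 12.4% of all genes (7.31% higher, 5.05% lower), and 0 in mutants, against 6.69%. At an unadjusted limma p under 0.05 the number with age in mutants was 2 (2.38%), against 20.96% of all genes.

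The intervals bound what these arrays could show. The 95% interval of the mutant minus wild-type difference lay within 0.5 on the log2 scale, a fold of 1.41, for 72 of 84 genes at 1 month and for 79 at 1 year. It reached beyond 1 for Cox6a2 and Cox8b at both ages. With age the interval lay within 0.5 for 77 genes in wild types and 79 in mutants. The spread within groups was a median SD of 0.14 over the 84 genes, against 0.19 over all genes.

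Most of the differences were positive at both ages. At 1 month 77 of 84 were positive (91.7%, against 54% of all genes), with a median of 0.13, against 0.02 over all genes. At 1 year 73 of 84 were positive (86.9%, against 47.2%), with a median of 0.07, against -0.01. The 84 genes are not independent, since they moved together from array to array, as the plot of the complexes by array shows. The median deviation of the 84 genes from their 16-array means was 0.25, 0.14, 0.06 and -0.17 on 1-month mutant replicates 1 to 4. On the 1-month wild types it was -0.24, -0.06, -0.06 and 0.19. The groups overlapped, with the lowest mutant array under 3 wild-type arrays and the highest wild-type array above 3 mutant arrays.

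The 1-month median of the 84 was 0.21 without mutant replicate 4 or without wild-type replicate 4. Without mutant replicate 1 or wild-type replicate 1 it was 0.06. Without the 3 arrays whose sex-linked genes went against the label it was 0.08 at 1 month and 0.05 at 1 year, with 70 and 66 of 84 differences positive. By complex the medians were then between 0.03 (complex II) and 0.10 (complex IV) at 1 month and between 0.03 (complex IV) and 0.08 (complex III) at 1 year, and Cox8b was again the 1 gene called at each age. Cox6a2 was at 1.02 and 0.77 and Atp5g1 at 0.44 and 0.26 without those arrays, and neither passed (limma adjusted p = 0.539, 0.609, 0.131 and 0.394). The median over the 84 was 0.08 at 1 month under quantile scaling.

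At 1 year the arrays lay closer together. The median deviation was 0.05, 0.01, 0.01 and 0.00 on the mutants and -0.03, -0.12, 0.02 and -0.07 on the wild types. Only wild-type replicate 3 lay among the mutants. Within this narrow spread, every mutant array lay above every wild-type array for 17 of the 84 genes (20.2%), against a background of 4.4% of all genes, and below for none, against 3.44%. At 1 month the counts were 2 above (Cox6b2 and Cox8b), against 5.84%, and 0 below, against 2.69%.

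The 17 genes at 1 year were 9 of complex I (Ndufa2, Ndufa3, Ndufa9, Ndufa11, Ndufb2, Ndufb9, Ndufs1, Ndufs4 and Ndufs7), Sdhb, Uqcrc2, Uqcrfs1, Cox8b, Atp5e, Atp5g1, Atp5g2 and Atp5g3. Apart from Cox8b their differences ran from 0.08 to 0.24 and none passed the test. Under quantile scaling and in the authors' deposited matrix the count was 14, with the same genes in both, against 4.98% of all genes in each. With another background correction (normexp) the count was 12, against 4.75%. The genes that stood apart in all 4 scalings numbered 9, namely Atp5g1, Atp5g2, Atp5g3, Cox8b, Ndufa3, Ndufa11, Ndufb2, Sdhb and Uqcrc2. At 1 month the count rose from 2 to 6 under each of those 3 alternatives, against 6.48%, 6.49% and 6.19% of all genes. Without the 3 arrays with sex-linked genes against the label it was 4 at 1 month, against 9.84% of all genes. At 1 year it was 18 without those arrays, against 6%.

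**Figure D4:**
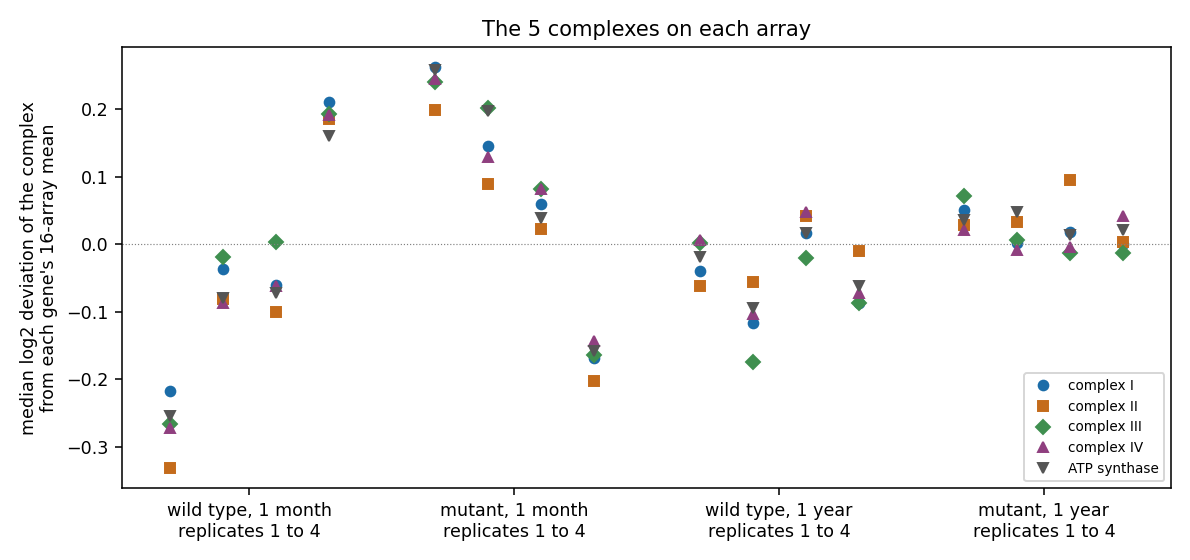
Median log2 deviation of the genes of each complex from their means over the 16 arrays, by array, with replicates 1 to 4 of each group from left to right. The 5 complexes lie close together on each array, and the 1-month arrays span about the same range in both genotypes, from -0.17 to 0.25 in mutants and from -0.24 to 0.19 in wild types over all 84 genes.

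With age the 84 genes showed no common direction in wild types, with 39 positive differences and a median of -0.01, against -0.03 over all genes. In mutants 18 were positive (21.4%, against 40.2% of all genes), with a median of -0.05, against -0.05 over all genes. Within slide 1 the wild-type median was 0.10 and within slide 2 it was -0.11, so the direction differed between the slides. The largest values with age, none of them called, were those of Cox6a2 (0.83 ± 0.40 in wild types, 0.75 ± 0.40 in mutants) and Cox7a1 (0.49 ± 0.22 and 0.51 ± 0.22). Muscle markers also ran higher with age, in 14 of 15 in each genotype, with medians of 0.95 and 0.62. With the muscle covariate the values of Cox6a2 were -0.05 and 0.16 and those of Cox7a1 0.10 and 0.25. Among the lower values were Ndufa11 (-0.20 ± 0.12) and Cox4i1 in wild types and Cox7b2 (-0.37 ± 0.21) and Uqcrc1 (-0.22 ± 0.09) in mutants, none of which passed.

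Where a gene had more than 1 probe, the other probes mostly agreed in direction. Of the 85 genes, 63 had 1 probe and 22 had more, with up to 5. The 29 other tested probes had the same sign as the gene's brightest probe in 28 cases at 1 month and 25 at 1 year. The largest gap was 0.14 at 1 month and 0.11 at 1 year, both for Ndufb11, a complex I subunit of the X chromosome.

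Genes that work with the chain were read beside it, with the shares of all genes called being 2.03% higher and 0.694% lower at 1 month and 12.4% with age in wild types. Among 7 electron carriers and feeders, 1 was higher at 1 month, Etfb, a subunit of the flavoprotein that brings electrons from fat oxidation, at 0.45 ± 0.11 (limma adjusted p = 0.0448), and none at 1 year. Cycs, cytochrome c, was at 0.18 ± 0.11 and 0.05 ± 0.11. With age in wild types 1 of the 7 was called higher and none lower. Of 45 assembly factors tested, 1 was higher at 1 month, Coa4 of complex IV assembly (0.52 ± 0.12, limma adjusted p = 0.0297), and none at 1 year. With age in wild types 2 assembly factors were higher and 2 lower, among them Uqcc3 of complex III assembly, which fell by 0.55 in wild types and by 0.59 in mutants (limma adjusted p = 0.0097 and 0.0094).

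None of 16 genes of the tricarboxylic acid cycle and pyruvate dehydrogenase passed the test between genotypes, with 15 positive at 1 month (median 0.13) and 14 at 1 year (median 0.07). With age in wild types 1 of these 16 genes was called higher and 1 lower, against 12.4% of all genes. The lower one was Dlat, the E2 subunit of pyruvate dehydrogenase, which fell by 0.45 (limma adjusted p = 0.0097). The highest value of the 16 in that comparison was 0.68. Of 17 regulators of mitochondrial biogenesis and mitochondrial DNA, 1 was higher at 1 month, Tfb1m, which modifies mitochondrial ribosomal RNA (0.57 ± 0.14, limma adjusted p = 0.0496), and none at 1 year. Ppargc1a, the coactivator PGC-1alpha, was at 0.20 ± 0.10 and -0.25 ± 0.10 and did not pass. With age 2 of the 17 were called higher and 1 lower in wild types, against 12.4% of all genes. In mutants 1 was called lower with age, against 6.69% of all genes called. Without the 3 arrays whose sex-linked genes went against the label, none of the 17 was called with age in mutants. Nrf1, Gabpa and Tfam are the factors best known for driving nuclear and mitochondrial genes of the chain, and none of the 3 passed in any of the comparisons.

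Of 17 glycolysis genes, 15 were positive at 1 month (median 0.11) and 5 at 1 year (median -0.08). Hk2, the hexokinase enriched in photoreceptors, was lower in 1-year mutants by 0.72 ± 0.11 (limma adjusted p = 0.0048). It was the 1 gene of the 17 called between genotypes, against 0.247% of all genes called lower at 1 year. Ldha fell with age in mutants by 0.44 (limma adjusted p = 0.0144). It was the 1 gene of the 17 called in that comparison, against 6.69% of all genes. Of 12 hypoxia-responsive genes, 8 were positive at 1 month (median 0.05) and 3 at 1 year (median -0.12). Only Egln1, an oxygen-sensing prolyl hydroxylase, was called between genotypes. The shares of all genes called lower were 0.694% at 1 month and 0.247% at 1 year. Egln1 was lower in mutants by 1.22 ± 0.17 at 1 month and by 1.67 ± 0.17 at 1 year (limma adjusted p = 0.0016 and 0.0001). With age in wild types 1 of the 12 was called higher and none lower, against 12.4% of all genes. The 13 subunits encoded by mitochondrial DNA were not analysed here.

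Without the 3 arrays whose sex-linked genes went against the label, 100 of the 19018 genes were called higher and 33 lower at 1 month, and 55 and 23 at 1 year. Egln1 kept its call at both ages, at -1.26 and -1.72 (limma adjusted p = 0.0322 and 0.00265), and Hk2 at 1 year, at -0.74 (0.0301). The 1-month calls of Etfb, Coa4 and Tfb1m were lost, at 0.56, 0.42 and 0.39 (limma adjusted p = 0.131, 0.362 and 0.442). The call of Acta1 at 1 month was lost at 2.18 (0.0693), and that of Cidea at 1 year at 0.36 (0.178). Ifitm3 kept its 1-month call, at 1.42 (0.017). With age in the mutants Uqcc3 was at -0.56 and Ldha at -0.43, and both calls were lost (limma adjusted p = 0.194 and 0.216).

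Markers of the retina and RPE were read beside these values. Gnat1, the transducin alpha subunit of rods, was at 0.22 at 1 month and lower in 1-year mutants, at -0.33 (limma adjusted p = 0.025), whereas the median of the respiratory chain genes at 1 year was 0.07. RPE markers summed to 174 to 226 in 1-month mutants and 104 to 150 in wild types. Of the 9 tested, 4 were called higher at 1 month, against 2.03% of all genes. At 1 year they summed to 159 to 209 in mutants and 152 to 212 in wild types, with none called, against 0.857% of all genes. Without the 3 arrays Gnat1 was at 0.16 and -0.34 (limma adjusted p = 0.635 and 0.106). None of the RPE markers was then called, though 8 of 9 were positive at 1 month with a median of 0.53, against 0.40 on all arrays. Over all genes, 100 were called higher at 1 month without the 3 arrays and 386 with them. The part of these shifts in the respiratory chain values was not tested.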

How the data were processed

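RNA of retina and RPE was hybridised to 16 one-colour arrays, 4 per group, and spot values were deposited as processed signal intensity from Agilent Feature Extraction 11.0.1.1, background-subtracted per the file headers, with marks for signal well above background. A second table, of log2 values, was deposited by the authors, and its normalization is not given in the sources used here. The array design refers to mm9 per the file headers.

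From these files, flagged outlier spots (93 to 136 per array) were dropped, log2 intensity minus each array's 75th percentile was averaged per probe, and probes with signal well above background on 4 or more arrays were kept. The brightest probe stood for a gene (19018 genes), named through RefSeq (GRCm38.p6), which matched 27229 of 55681 probes. limma 3.58.1 (R 4.3.3) fitted 4 group means, with Benjamini-Hochberg adjustment at 0.05, two-sided, and was tested on simulated data. Tables were made with Python 3.11.15 and pandas 2.3.3. Errors beside a difference are model SEs with 4 arrays per group. P-values measure the spread between these arrays, whose number limits the precision, and no 2 arrays held identical values. The members and gene lists were chosen with earlier results of these data known. Named genes were the called members, the 3 largest differences in each direction, and a fixed set of subunits and isoforms. The first 2 and the called genes of other lists were named too. The rod marker list as a whole is not reported here. Others named were chosen after their values were seen. Alternatives changed the scaling, background correction, probe filter, probe choice, slide, row, replicate number and arrays.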

Additional observations from a re-analysis of the deposited data

Results flagged for a closer look

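In 9 of the 152 sets of 4 arrays looked at, the highest or lowest array stood apart from the other 3, and chance gives about 1 in 20. All 9 were groups of genes the text names by rule. The array labelled 1-month mutant replicate 4 was lowest for Cox5a (5.53, next 5.77) and Uqcrfs1 (3.96, next 4.40). One-month wild-type replicate 4 was highest for Ndufv1 (5.33, next 4.98) and Sdha (4.45, next 4.16). In 1-year wild types the highest array was replicate 1 for Cox6a1 (6.90), replicate 3 for Ndufs3 (4.68) and replicate 4 for Ndufv1 (4.99), and the lowest was replicate 2 for Cox7b2 (-5.62). In 1-year mutants replicate 2 was highest for Cox6b1 (2.28).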

How the results depend on the processing

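Cox8b was the gene called at each age in the main setting, and its difference ran over 30 alternatives from 1.27 to 1.71 at 1 month and from 1.24 to 1.56 at 1 year. It was called in all but those that used 1 slide alone. The count of called genes at 1 month was 3 with normexp and quantile scaling (Atp5g1, Cox8b, Uqcr11), 2 with quantile scaling, 2 in the deposited matrix, 2 with the row as a term (Cox8b, Uqcr11) and 0 on either slide alone, and 1 to 2 leaving out each array. At 1 year it was 0 on either slide alone. With age in wild types it was 0 on slide 1 alone, 1 on slide 2 alone, where the gene was Cox7b2 (0.83, limma adjusted p = 0.0408) and not Cox6b2 (0.42, 0.157), and 0 to 1 leaving out each array. The shares of all genes called under the settings of these counts are not given here. A count that moved with the setting is therefore not read as a result about these genes. Median differences leaving out each array ran from 0.06 to 0.21 at 1 month and from 0.05 to 0.09 at 1 year. The cause of these changes was not tested, except that 1 slide holds 2 arrays per group.

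The shared replicate numbers did not pair the arrays: deviations of same-numbered arrays correlated between -0.54 and 0.17. With the replicate block, the count with age in wild types was 2 (Cox6b2 and Ndufa4l2, adjusted p = 0.0296 by limma for the latter), and the block changed no other count.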
